A study of Mus musculus with 22 samples.

Results

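Oxidative phosphorylation is carried out by 5 protein complexes of the inner mitochondrial membrane, and most of their subunits are encoded in the nucleus. The genes described here are the protein-coding GENCODE mouse genes whose symbols begin with Nduf followed by a, b, c, s or v and a digit (complex I), Sdha to Sdhd (complex II), Uqcr (complex III), Cox4 to Cox8 followed by a, b or c (complex IV) and Atp5f1, Atp5m or Atp5p (complex V). The rule uses the symbols and no measured value. Of 86 such genes, 83 had transcripts in the count table, among 17023 genes in all, and Ndufb11b, Cox7b2 and Cox8c were not analysed here. The 83 genes fell into 38 of complex I, 4 of complex II, 8 of complex III, 15 of complex IV and 18 of complex V. Complexes were assigned by symbol alone. Ndufa4, a complex IV subunit, and its relative Ndufa4l2 are therefore counted under complex I throughout, and the assembly factor Cox7a2l under complex IV. The rule leaves out a few nuclear subunits with other names, such as Cox4i1, Cyc1 and Ndufab1.

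Complex I (NADH dehydrogenase) and complex II (succinate dehydrogenase, also an enzyme of the TCA cycle) pass electrons to ubiquinone, complex III passes them on to cytochrome c, and complex IV (cytochrome c oxidase) hands them to oxygen. Complexes I, III and IV pump protons, and complex V (ATP synthase) uses the gradient to make ATP. Most subunits are expressed in nearly every cell, but some subunits of complex IV come in a common form and a form of heart and muscle, and Ndufa4l2, a relative of the complex IV subunit Ndufa4, is known as a gene induced by low oxygen.

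The samples came from TCL1-355 TKO, a line derived from an Eμ-TCL1 mouse leukemia that resembles human chronic lymphocytic leukemia and carries engineered lesions in tumor suppressor loci including CDKN2A and CDKN2B. NFKBIE-ko cells had Nfkbie, which encodes the NF-kappaB inhibitor IκBε, disrupted with CRISPR/Cas9, and NFKBIE-wt cells received Cas9 without a guide. The genotypes were propagated separately for 21 days, with 2 C57BL/6 donor mice reported, and transplanted intraperitoneally into C57BL/6 recipients. Recipients of a genotype therefore shared donors, so in vivo genotype and donor cannot be told apart. Cells were taken 10 days later from the spleen and the peritoneal cavity (PC), with 4 samples in each of the 4 in vivo groups. For the in vitro groups, cells isolated from spleens were cultured for 2 weeks, with 3 samples per genotype. The in vivo cells were not purified, so host cells contributed RNA. Fewer mice were transplanted per genotype than there are spleen and PC samples together, so some mice gave both. The sources do not say which samples these are, so PC and spleen samples were tested as independent, and p-values measure the spread between samples.

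Total estimated counts ranged from 24036763 to 26581304 per sample. A pair of libraries, called doubted here, stood apart from their labels. NFKBIE-wt spleen replicate 4, as labelled, held 6.88 CPM (counts scaled to a common library total) of erythroid and 0.155 CPM of granulocyte markers, whereas the other 3 NFKBIE-wt spleens held 283 to 2044 and 62.6 to 402 CPM. NFKBIE-wt in vitro replicate 3, as labelled, held 1446 and 204 CPM of the same markers, against 12.0 to 20.7 and 0.154 to 3.70 CPM in the other NFKBIE-wt cultures. Each thus had marker levels nearer to those of the setting on the other's label, and whether the 2 libraries were exchanged was not tested. Every NFKBIE-wt spleen and in vitro value below includes one of them unless it says otherwise. Nfkbie itself was at 47.2 to 64.9 CPM in NFKBIE-ko PC samples against 67.3 to 91.1 in NFKBIE-wt PC, and at 48.2 to 59.9 in NFKBIE-ko cultures against 117, 141 and 54.3 in NFKBIE-wt, where 54.3 is replicate 3. In the spleen it was not lower under the knockout label, at 120.3, 54.2, 109 and 112 CPM against 72.7, 70.9, 76.8 and 124, where 124 is replicate 4. The count covers the whole gene and so does not by itself check the disruption. NFKBIE-ko spleen replicate 2 also differed from its group, with 59.1 CPM of erythroid markers against 629 to 903. Counts of members called are given with and without these libraries, and values of single genes only in part.

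In TPM, a scale that corrects counts for transcript length and library total, the 83 genes made up 1.63 to 2.40% in the 22 samples. The sum divided between complexes in nearly fixed shares, with 28.2 to 30.4% from complex I, 2.41 to 3.01% from complex II, 7.96 to 9.31% from complex III, 20.7 to 23.6% from complex IV and 35.6 to 39.2% from complex V. The highest mean levels belonged to Atp5f1b, the catalytic beta subunit of ATP synthase, at 1351 TPM, its partner Atp5f1a, the alpha subunit, at 1099 TPM, and Cox6c of complex IV at 1024 TPM. The leading members of the other complexes were Ndufb8 at 381 TPM, Sdhd at 255 TPM and Uqcr10 at 432 TPM. In total 76 genes had mean levels above 10 TPM and 7 lay below.

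**Figure D1:**
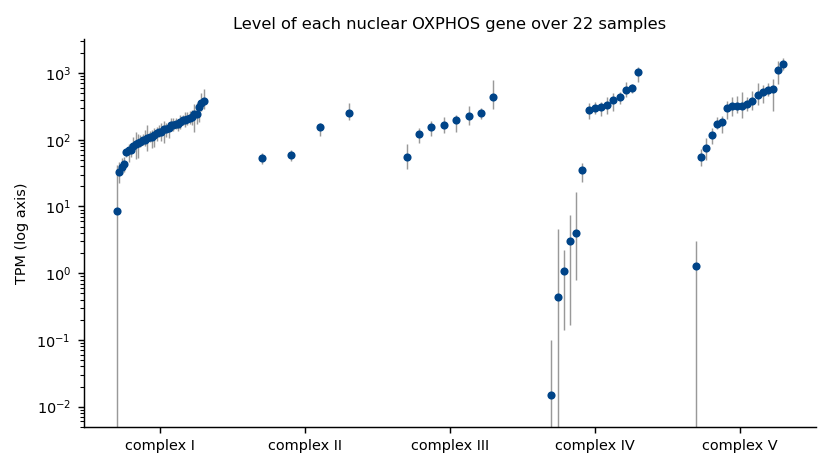
Level of each of the 83 genes in TPM on a log axis, grouped by complex; the dot is the mean of 22 samples and the line runs from the lowest to the highest sample, with lines that reach the bottom of the axis going to 0. Most genes lie above 10 TPM with short lines, and the 7 genes below 10 TPM include Ndufa4l2, Cox6a2 and Cox7a1.

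The 7 low genes were Ndufa4l2 (8.68 TPM), the heart and muscle forms Cox6a2 (3.94 TPM), Cox7a1 (3.01 TPM) and Cox8b (0.0150 TPM), the testis form Cox6b2 (0.446 TPM), another gene named Atp5po (1.26 TPM) and Cox5b-ps (1.08 TPM), which GENCODE counts as protein-coding. The common partners were higher by far on the same scale, at 555 TPM for Cox6a1, 594 TPM for Cox8a, 359 TPM for Ndufa4 and 275 TPM for Cox6b1. Reads shared with the 5 annotated pseudogenes in the table that match the rule, or between near-identical copies, could be split by the counting, and values of the 2 Atp5po genes and Cox5b-ps are uncertain for that reason. Cox6b2 and Cox8b were too low to be tested in any comparison.

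The summed level of all 83 genes was 11690.0, 14194, 10481 and 11497 CPM in NFKBIE-wt spleens and 13032, 11012, 15337 and 13924 CPM in NFKBIE-ko spleens. In the PC it was 10659, 10087, 9676 and 11769 CPM for NFKBIE-wt and 10600.4, 11618, 11374 and 11921 CPM for NFKBIE-ko. In vitro it was 11089, 12110.0 and 10030.5 CPM for NFKBIE-wt and 12200.4, 12163 and 12373 CPM for NFKBIE-ko. The PC range overlapped the spleen range in both genotypes, and the NFKBIE-ko cultures lay above all NFKBIE-wt cultures and all PC samples. The NFKBIE-ko spleens spread widest, with replicate 2 the lowest.

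**Figure D2:**
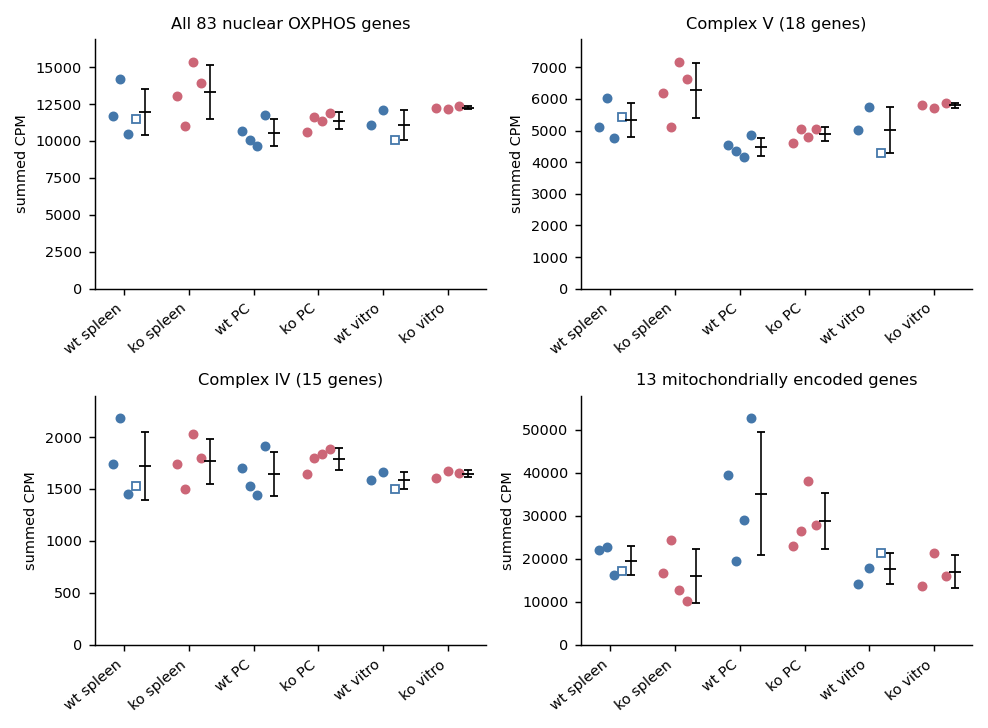
Summed CPM per sample for all 83 genes, complex V, complex IV and the 13 subunits encoded in mitochondrial DNA, by group; dots are samples, open squares the doubted NFKBIE-wt spleen replicate 4 and in vitro replicate 3, and bars the mean ± SD. Complex V lay between 4177 and 5062 CPM in PC samples and between 4753 and 7162 CPM in spleens, and the mitochondrially encoded sum reached 52626 CPM in the PC.

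The comparison of PC with spleen asks how the same leukemia differs between these sites. In NFKBIE-ko, 30 of 79 members tested were lower in the PC and 5 were higher at an adjusted p below 0.05 (edgeR quasi-likelihood test, Benjamini-Hochberg over all genes), while 30.1% of all genes were lower and 29.7% were higher. The members called lower made up 38% of those tested and those called higher 6.33%. With 1 library left out at a time, the share of members lower ran from 21.5 to 51.9% against 26.8 to 31.6% of all genes, above the background in 4 of 8 such fits and below it in 4. The share higher was 5.06 to 10.1%, below the background in all 8. The changes were small, with a median log2 fold change of −0.18 against −0.01 over all genes. With the added condition of a log2 fold change beyond 1, 1 member remained, where 22.1% of all genes passed. In NFKBIE-wt, 7 of 80 members were lower (8.75%) and 2 higher (2.5%), below the 14.3% and 14.2% of all genes, with a median of −0.16. Past a log2 fold change of 1 there was again 1 member, against 11.1% of all genes. With the doubted NFKBIE-wt spleen replicate 4 left out, the counts in NFKBIE-wt were 8 lower and 2 higher. These were 10% and 2.5% of the members tested, against 17.4% and 18.3% of all genes. In that fit Ndufa5, Ndufa12, Ndufs1, Atp5mc3 and Ndufa6 still passed (adjusted p = 0.0177, 0.0185, 0.00669, 0.0313 and 0.048). Cox7a2l and Atp5mc1 did not pass in it (log2 0.38 and −0.42, adjusted p = 0.13 and 0.0884). Single libraries moved the counts of members called, and in NFKBIE-wt the shares of all genes as well. In NFKBIE-wt fits without 1 library, 8.5 to 17.4% of all genes were lower and 8.56 to 18.3% higher. The share of members lower was 2.5 to 12.5%, above that of all genes in 1 of 8 such fits. In NFKBIE-ko the number lower was 41 without spleen replicate 2, 19 without spleen replicate 3, 18 without spleen replicate 4, 17 without PC replicate 1 and 19 without PC replicate 3. In NFKBIE-wt it was 3 without spleen replicate 1 or PC replicate 2 and 2 without PC replicate 1 or 3, and 6 were higher without spleen replicate 2.

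By complex, the members lower in the NFKBIE-ko PC were 15 of 38 tested in complex I, 1 of 4 in complex II, 2 of 8 in complex III, 2 of 12 in complex IV and 10 of 17 in complex V. Complex V had the lowest median, −0.29, and no member of it was called higher. Complex IV had a median of −0.04, with 2 members higher. In NFKBIE-wt the calls were 4 lower and 2 higher (Ndufa6 and Ndufa4l2) among genes counted under complex I and 3 lower in complex V. There were none in the other complexes. The 2 genotypes used different samples here, and all 9 members called in NFKBIE-wt were also called in the same direction in NFKBIE-ko. That is 100% of the NFKBIE-wt calls and 25.7% of the NFKBIE-ko calls. The share of calls in common was not taken over all genes, of which 29.7% were called higher and 30.1% lower in NFKBIE-ko. It therefore does not show a trait of the members. The sign was shared by 87.3% of 79 members, and by 79.7% of 12110 genes tested in both.

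**Figure D3:**
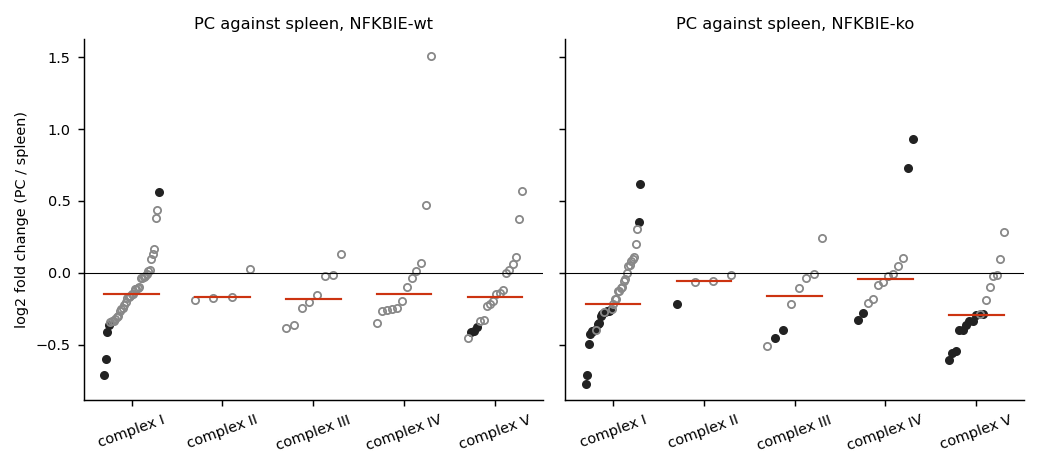
Log2 fold change of PC against spleen for each gene tested, by complex and genotype; filled points passed an adjusted p of 0.05 and the red line is the median of the points shown, and Ndufa4l2 lies beyond the axis and is left out. Complex V in NFKBIE-ko has its median at −0.29 and complex IV at −0.04.

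Other markers moved between these sites too. All 14 myeloid markers were higher in the PC in both genotypes, and their sum was 620.1 to 1850.3 CPM in NFKBIE-wt PC and 3927 to 5811 CPM in NFKBIE-ko PC against 35.0 to 383 CPM in the spleens. Erythroid markers fell in the PC in NFKBIE-ko, with 8 of 8 tested lower. In bulk samples, fewer cells of a type and less RNA per cell cannot be told apart, and the part of host cells in the differences between sites was not tested.

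Ndufa5, an accessory subunit of complex I, was at 35.5, 30.9, 24.2 and 35.4 CPM in NFKBIE-wt spleens and 19.2, 16.4, 16.9 and 23.4 CPM in NFKBIE-wt PC samples. In NFKBIE-ko it was at 33.1, 32.9, 34.2 and 29.7 CPM in spleens and 18.4, 20.3, 19.5 and 21.6 CPM in the PC. Every PC sample lay below every spleen sample of its genotype, and the log2 fold change was −0.71 in both (SE 0.17, adjusted p = 0.0142 in NFKBIE-wt, and SE 0.09, adjusted p = 8.94e-05 in NFKBIE-ko). Only 43.5% of the Ndufa5 counts were in transcripts annotated as protein-coding. Ndufa12, another accessory subunit of complex I, was at 108, 80.5, 64.7 and 72.5 CPM in NFKBIE-wt spleens against 52.3, 51.5, 46.0 and 61.4 CPM in the PC. In NFKBIE-ko it was at 90.5, 116, 110.0 and 96.6 CPM against 61.4, 61.9, 60.7 and 58.9 CPM. It fell by 0.60 on the log2 scale in NFKBIE-wt (SE 0.17, adjusted p = 0.0291) and by 0.77 in NFKBIE-ko (SE 0.09, adjusted p = 6.93e-05), with no overlap in either genotype.

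Ndufs1, the largest subunit of the electron-entry arm of complex I, was at 140.4, 129, 132 and 141 CPM in NFKBIE-wt spleens and 96.2, 105, 99.2 and 101 CPM in the PC. The NFKBIE-ko values were 148, 152, 137 and 143 CPM in spleens and 108, 117, 105 and 109 CPM in the PC. The spread within each group was narrow, the sites did not overlap, and the log2 fold change was −0.41 in both genotypes (SE 0.08, adjusted p = 0.00505, and SE 0.07, adjusted p = 0.000613). Ndufs1 shares exon sequence on the opposite strand with Eef1b2, as do Ndufa6 with Smdt1, Atp5f1a with Haus1 and Atp5pf with Gabpa. The same holds for Cox7a2l with Eml4, Ndufb1 with Cpsf2 and Atp5pb with Wdr77. In all, the exons of 31 members overlap another gene with a mean of 1 CPM or more. Since the strand of counting is not stated, reads of such pairs cannot be told apart.

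In complex V, Atp5f1a was at 1403, 1469, 1356 and 1739.9 CPM in NFKBIE-wt spleens and 1095, 1129, 1096 and 1115 CPM in NFKBIE-wt PC samples. It was at 1889, 1641, 2101 and 2058 CPM in NFKBIE-ko spleens and 1226, 1305, 1225 and 1308 CPM in NFKBIE-ko PC samples. The PC values formed tight groups below all spleens of the same genotype, with log2 fold changes of −0.40 (SE 0.11, adjusted p = 0.023) and −0.61 (SE 0.09, adjusted p = 0.000345). With the doubted NFKBIE-wt spleen replicate 4, the highest of its group, left out, the first was −0.33 (adjusted p = 0.0365). Atp5f1b, its partner in the catalytic head, fell by 0.34 in NFKBIE-ko (SE 0.10, adjusted p = 0.0184).

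The c subunit of the ATP synthase rotor has the same mature form from 3 genes. Atp5mc3 was at 229.8, 318, 239 and 238 CPM in NFKBIE-wt spleens against 187, 182, 175 and 212 CPM in the PC, and at 300.5, 195, 379.9 and 349 CPM in NFKBIE-ko spleens against 195, 214, 214 and 214 CPM. It was lower in the PC in NFKBIE-wt (log2 −0.41, SE 0.13, adjusted p = 0.0441), where the groups did not overlap, and in NFKBIE-ko (−0.55, SE 0.17, adjusted p = 0.0193), where spleen replicate 2 fell among the PC values. Atp5mc1 gave −0.55 in NFKBIE-ko (SE 0.17, adjusted p = 0.0186) and −0.45 in NFKBIE-wt, which did not pass (adjusted p = 0.0669). Atp5mc2 had a log2 value of −0.29 in NFKBIE-ko with an SE of 0.27 (adjusted p = 0.38).

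The 5 members higher in the PC in NFKBIE-ko were Ndufa4l2, Cox7a1, Cox7a2l, Ndufa6 and Ndufv3, the last named after its value was seen. Cox7a2l, an assembly factor that joins complexes III and IV into supercomplexes, was at 213, 200.2, 259 and 240.4 CPM in NFKBIE-ko spleens and 355, 373, 377 and 415 CPM in the PC. In NFKBIE-wt it was at 263, 393, 236 and 227 CPM against 403, 372, 344 and 411 CPM, where spleen replicate 2 overlapped the PC samples. It rose in NFKBIE-ko (log2 0.73, SE 0.10, adjusted p = 0.000131), and the NFKBIE-wt value of 0.48 did not pass (SE 0.18, adjusted p = 0.0828). Its overlap partner Eml4, at a mean of 176 CPM, had values of 0.20 in NFKBIE-ko (adjusted p = 0.137) and −0.40 in NFKBIE-wt (adjusted p = 0.183).

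Ndufa6, an accessory subunit of complex I, was at 55.7, 80.6, 49.4 and 50.8 CPM in NFKBIE-wt spleens against 87.8, 82.7, 80.4 and 92.8 CPM in the PC. In NFKBIE-ko it was at 52.2, 54.8, 62.0 and 53.1 CPM against 77.5, 84.7, 89.4 and 91.1 CPM. It was higher in the PC in both genotypes (log2 0.56, SE 0.16, adjusted p = 0.0329 in NFKBIE-wt, with 1 spleen sample just above the lowest PC sample, and 0.62, SE 0.09, adjusted p = 0.000201 in NFKBIE-ko). Cox7a1, a heart and muscle form, rose by 0.93 in NFKBIE-ko (SE 0.28, adjusted p = 0.0174) from 0.995, 1.06, 0.951 and 0.495 CPM to 1.52, 1.63, 2.00 and 1.58 CPM, levels that rest on 90 and 168 counts over 4 libraries each.

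**Figure D4:**
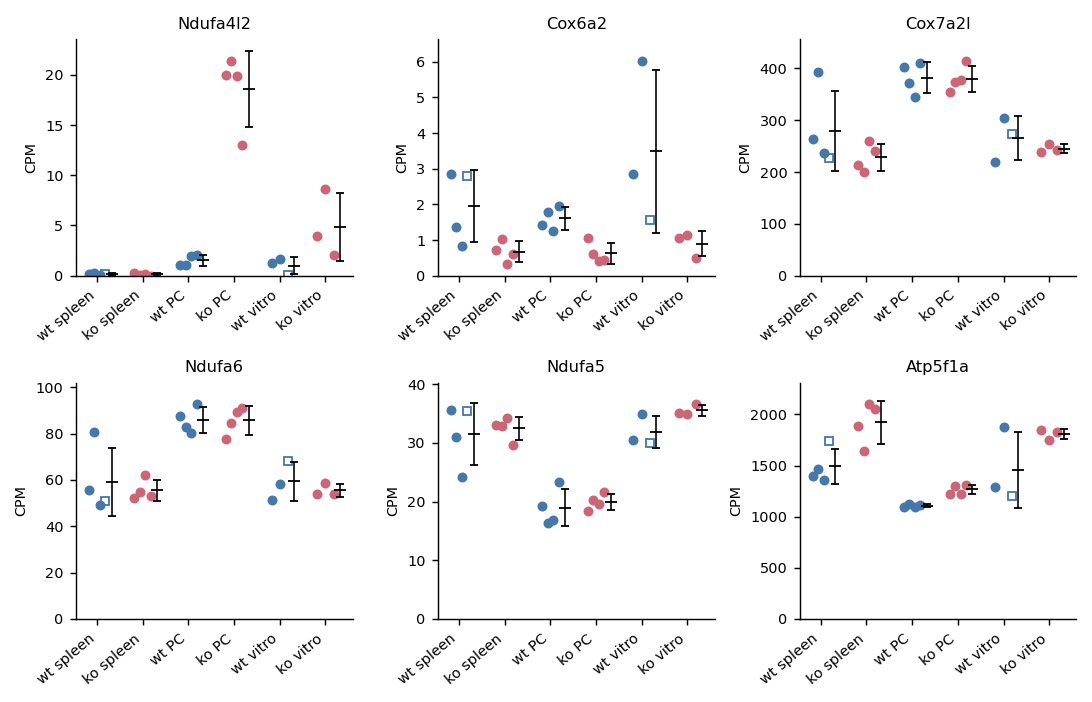
CPM per sample of Ndufa4l2, Cox6a2, Cox7a2l, Ndufa6, Ndufa5 and Atp5f1a in the 6 groups; dots are samples, open squares the doubted NFKBIE-wt spleen replicate 4 and in vitro replicate 3, and bars the mean ± SD. Ndufa4l2 lies between 13.1 and 21.4 CPM in NFKBIE-ko PC samples and at or below 0.268 CPM in all spleens.

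Ndufa4l2 (chromosome 10, 127350818 to 127353038, GRCm39) had the largest differences of any member. It was at 0.120, 0.243, 0.0780 and 0.155 CPM in NFKBIE-wt spleens and 0.268, 0.0788, 0.159 and 0 CPM in NFKBIE-ko spleens. In the PC it was at 1.05, 1.07, 1.95 and 2.05 CPM in NFKBIE-wt and 20.0, 21.4, 19.9 and 13.1 CPM in NFKBIE-ko. The PC samples lay above all spleens of both genotypes, and the NFKBIE-ko PC samples above all NFKBIE-wt PC samples.

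Ndufa4l2 was higher in the PC than in the spleen in NFKBIE-wt (log2 3.35, SE 0.47, adjusted p = 0.00161) and in NFKBIE-ko (7.14, SE 0.43, adjusted p = 1.35e-06), the latter from 1865 against 13 counts, a ratio of 146 with a 95% exact interval of 85.0 to 274 for counting error only. It was also higher in NFKBIE-ko than in NFKBIE-wt PC samples (log2 3.59, SE 0.25, adjusted p = 3.88e-06), with 1865 against 151 counts and a ratio of 12.0 (10.1 to 14.2). In vitro it was at 1.25, 1.69 and 0.0375 CPM in NFKBIE-wt, the last in the doubted replicate 3, and 3.98, 8.59 and 2.02 CPM in NFKBIE-ko. The 2 genotypes did not overlap in vitro, but the difference did not pass the test (log2 2.30, SE 1.06, adjusted p = 0.53), nor did it without replicate 3 (1.73, adjusted p = 0.494).

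The genotype difference of Ndufa4l2 was smaller in the spleen than in the PC by 3.82 on the log2 scale (SE 1.13, adjusted p = 0.057), which did not pass. It did not pass without the doubted spleen library either (−3.80, SE 1.27, adjusted p = 0.0989). It passed without both doubted libraries (−3.78, adjusted p = 0.0269) and without NFKBIE-wt in vitro replicate 2 (adjusted p = 0.0466) or 3 (adjusted p = 0.0147), and with DESeq2 (adjusted p = 0.0045). Over all alternatives its adjusted p ran from 0.0045 to 0.112. The myeloid marker sum was highest in the NFKBIE-ko PC, where Ndufa4l2 was highest, and its part in that level was not tested. In NFKBIE-ko cultures the sum over the 14 myeloid markers was 38.0 to 47.1 CPM, with 6 of them at 0. The source of Ndufa4l2 in the PC was not tested. Ndufa4l2 shares exon sequence on the opposite strand with Shmt2, which showed a log2 difference of 0.18 between genotypes in the PC (adjusted p = 0.32) and −0.24 between sites in NFKBIE-ko (adjusted p = 0.105). Its relative Ndufa4 was at 106 to 109 CPM in the NFKBIE-ko PC and 92.2 to 172 CPM in NFKBIE-ko spleens, a log2 difference of −0.40 that did not pass (SE 0.16, adjusted p = 0.0557).

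The promoters of the members were searched for the binding motifs of factors known to act on respiratory genes. RefSeq promoter windows of 300 bases (250 before and 50 after the start site, GRCm38.p6) were matched for 67 of the 83 genes, giving 72 windows among 32851. On either strand, the NRF1 motif GCGCATGCG was found in 11.1% of member windows and 1.75% of all windows, the GABP motif CCGGAAG in 22.2% and 8.86%, the YY1 motif AAGATGGCG in 9.72% and 1.4%, and the E-box CACGTG in 9.72% and 7.15%. The NRF1 letters overlap their own reverse complement, so both strands can match at 1 place. Of 27 windows of members lower in the NFKBIE-ko PC, 14.8% held NRF1, 25.9% GABP, 14.8% YY1 and 14.8% the E-box, and of 41 windows of members called in neither direction, 9.76%, 22%, 7.32% and 7.32% did. The 4 windows of members called higher held none of these letters. A match describes the letters only.

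The windows below show these motifs in members lower in the NFKBIE-ko PC, chosen because they hold at least 2 of the motifs or, for the c subunit genes, the E-box. Each is 30 bases of the gene's strand, with the motif or its reverse complement in capitals, placed on GRCm39 by exact match. They lie at chr5:108582295-108582324 (Atp5me), chr5:115487159-115487188 (Cox6a1), chr10:80242641-80242670 (Uqcr11), chr16:84631907-84631936 and chr16:84631933-84631962 (Atp5pf), chr2:73741891-73741920 (Atp5mc3) and chr11:95966484-95966513 (Atp5mc1), all on the minus strand.
Atp5me, NRF1: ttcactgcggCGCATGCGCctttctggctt
Cox6a1, NRF1: aggaacggggCGCATGCGCgctctcgctcc
Uqcr11, NRF1: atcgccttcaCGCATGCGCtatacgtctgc
Atp5pf, GABP: agctgagggacCCGGAAGcacttaccctcc
Atp5pf, YY1: aagtgtaggaAAGATGGCGgagtcttagct
Atp5mc3, E-box: acccctgcctggCACGTGcaaggagcgagg
Atp5mc1, E-box: agggactccgaaCACGTGggtgggggagct

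The levels of the factors themselves were among a list of 13 regulators of mitochondrial biogenesis. In the NFKBIE-ko PC 10 of them were lower and 1 higher than in the spleen, and in NFKBIE-wt 4 were lower and 1 higher. Over all genes 30.1% were lower and 29.7% higher in NFKBIE-ko, and 14.3% and 14.2% in NFKBIE-wt. Nrf1 fell by 0.80 in NFKBIE-ko (SE 0.07, adjusted p = 1.62e-05) and by 0.73 in NFKBIE-wt (SE 0.08, adjusted p = 0.000526). Gabpa, a subunit of GABP, fell by 0.41 in NFKBIE-ko (adjusted p = 0.0134). Its value of −0.34 in NFKBIE-wt did not pass (adjusted p = 0.0719). The value of Yy1 is not given here, and a link between the factors and the motifs was not tested. The coactivator Ppargc1b fell by 1.00 and 0.86 (adjusted p = 0.00132 and 0.0286), whereas Esrra, a nuclear receptor that acts on respiratory genes, rose by 1.02 and 0.83 (adjusted p = 7.8e-05 and 0.00702).

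Other mitochondrial genes moved between the sites as follows in NFKBIE-ko. Of 78 mitochondrial ribosomal protein genes, 54 were lower and 2 higher in the PC (median −0.48), led by Mrps27 at −1.04. Of 23 import genes of the TOM and TIM complexes 13 were lower, of 20 TCA cycle and pyruvate entry genes 13 were lower and 2 higher, and of 45 assembly factors 15 were lower and 4 higher (medians −0.36, −0.26 and −0.18). Fh1, the fumarase of the TCA cycle, fell by 0.61 (SE 0.09, adjusted p = 0.000346), and Cox10, which acts in the synthesis of heme A for complex IV, by 0.83 (SE 0.09, adjusted p = 5.5e-05). In NFKBIE-wt the same lists had 16, 2, 6 and 5 genes lower and 0, 0, 1 and 1 higher. The shares of all genes lower and higher were 30.1% and 29.7% in NFKBIE-ko and 14.3% and 14.2% in NFKBIE-wt. The assembly factors lay near the share lower in both genotypes.

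Among the 13 subunits encoded in mitochondrial DNA, 6 were higher in the PC in NFKBIE-ko and none lower (median 0.79), with mt-Co2 at 1.73 (SE 0.35, adjusted p = 0.0021), and in NFKBIE-wt 1 was higher, mt-Co1 at 0.96 (SE 0.26, adjusted p = 0.024). Their sum was 19490.5 to 52626 CPM in PC samples and 10221 to 24471 CPM in spleens, so the ranges overlapped. Among 20 glycolysis genes tested, 14 were higher in the NFKBIE-ko PC and 8 in the NFKBIE-wt PC, and none was lower. Cytosolic ribosomal protein genes had 18 higher and 1 lower of 81 in NFKBIE-ko, with medians of 0.22 and, in NFKBIE-wt, 0.38. Beside these counts, 29.7% of all genes were higher and 30.1% lower in NFKBIE-ko, and 14.2% and 14.3% in NFKBIE-wt. The share of cytosolic ribosomal protein genes higher in NFKBIE-ko was thus below that of all genes.

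The cultured cells gave another reference for the PC, in comparisons that use the same PC samples as above. In NFKBIE-ko, 18 of 80 members were higher and 14 lower in the PC than in vitro, where 36% and 31.8% of all genes were, and the median was 0.01. The condition of a log2 fold change beyond 1 left 2, Ndufa4l2 and Cox7a1, against 23.2% of all genes. The split depended on scaling, since with total counts in place of TMM 12 were higher and 27 lower. The 18 higher included 10 of the 38 members of complex I, and the 14 lower included 8 of the 18 members of complex V. Complex I holds the most members, so its number among those higher does not set it apart. Ndufa5 fell by 0.78 (SE 0.07, adjusted p = 6.02e-06), Atp5f1a by 0.46 (SE 0.05, adjusted p = 2.98e-05) and Atp5mc1 by 0.36 (SE 0.05, adjusted p = 0.000165), while Cox7a2l rose by 0.69 (SE 0.06, adjusted p = 6.46e-06), Cox7a1 by 1.89 (SE 0.31, adjusted p = 0.00036) and Ndufa4l2 by 1.98 (SE 0.45, adjusted p = 0.0059). Without NFKBIE-ko PC replicate 1 the number higher was 35, with the share of all genes in that fit not given here.

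In NFKBIE-wt, 3 of 80 members were higher in the PC than in vitro (Ndufa6, Cox7a2l and Ndufb1) and 4 lower (Ndufa5, Ndufa12, Ndufs1 and Atp5pb, a stator subunit of ATP synthase), against 10.4% and 11% of all genes. None passed the added condition on fold change, against 8.92% of all genes. Without the doubted NFKBIE-wt in vitro replicate 3, 2 were higher and 8 lower. For this and the other fits without 1 library, the shares of all genes are not given here. Ndufa5 gave −0.71 with all samples (SE 0.15, adjusted p = 0.0184) and −0.74 without that library (adjusted p = 0.0131), Ndufa6 0.57 (SE 0.12, adjusted p = 0.0196) and 0.69 (adjusted p = 0.00353), whereas Ndufa12 and Ndufb1 no longer passed (adjusted p = 0.0692 and 0.0614). Leaving out NFKBIE-wt PC replicate 1 left no member called, leaving out NFKBIE-wt PC replicate 4 left 0 higher and 2 lower, and without PC replicate 3 none was lower. The other libraries left out, PC replicate 2 and in vitro replicates 1 and 2, gave 1 or 2 lower.

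Spleen and cultured cells differed in few members. In NFKBIE-ko, 5 of 80 were higher in the spleen (Ndufa12, Ndufs6, Atp5pd, Cox6a1 and Ndufa10) and Ndufa4l2 was lower, against 20.3% and 18.5% of all genes, and 1 member passed the condition on fold change, against 15.1%. Ndufa12 was higher by 0.45 (SE 0.10, adjusted p = 0.00898) and Ndufa4l2 lower, at −5.21 (SE 0.74, adjusted p = 0.000999). The count of members moved when single libraries were left out. It was 35 higher without NFKBIE-ko spleen replicate 2, 2 without NFKBIE-ko in vitro replicate 2 or 3 and none without NFKBIE-ko in vitro replicate 1. The shares of all genes in those fits are not given here, so a change of the members cannot be told from a change of all genes. In NFKBIE-wt, edgeR called no member of 78 and 0% of all genes in either direction, no member was below an unadjusted p of 0.05, and DESeq2 called none. Each group there holds a doubted library, which bears on these counts of 0, and without both of these Ndufa4l2 was lower in the spleen (log2 −3.28, SE 0.66, adjusted p = 0.0383).

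**Figure D5:**
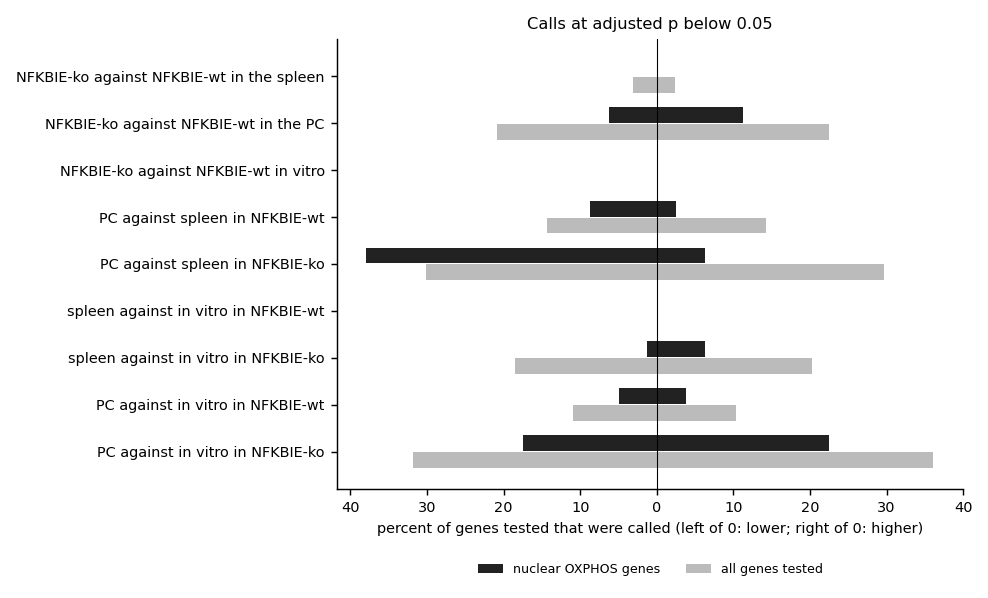
Percent of the genes tested that were called higher or lower in each comparison, for the members and for all genes. In PC against spleen in NFKBIE-ko 38% of members and 30.1% of all genes were lower.

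The genotype comparison sets NFKBIE-ko against NFKBIE-wt samples, and in vivo a genotype effect cannot be told apart from a donor effect. In the PC, 9 of 80 members were higher and 5 lower in NFKBIE-ko, below the 22.5% and 20.9% of all genes, and 2 passed the condition on fold change, Ndufa4l2 and Cox6a2, against 13.4% of all genes. Cox6b1, which joins the monomers of the complex IV dimer, was at 85.0, 65.7, 65.7 and 94.6 CPM in NFKBIE-wt and 96.6, 113, 108 and 115 CPM in NFKBIE-ko, without overlap (log2 0.46, SE 0.13, adjusted p = 0.0129). Both membrane anchors of succinate dehydrogenase were higher, Sdhd by 0.27 (SE 0.08, adjusted p = 0.0193) and Sdhc by 0.22 (SE 0.08, adjusted p = 0.0424), while the catalytic Sdha and Sdhb had values of 0.06 and 0.19 that did not pass (adjusted p = 0.404 and 0.0611). The genotypes overlapped for both Sdhd and Sdhc. Atp5pb was higher by 0.23 (SE 0.07, adjusted p = 0.0316), and Cox6a1 and Ndufa10 were lower, at −0.28 and −0.22 (adjusted p = 0.0352 and 0.0141). Of 15 alternative fits, Sdhc did not pass in 10, Sdhd in 5, Atp5pb in 8, Cox6a1 in 8 and Ndufa10 in 2, while Cox6b1 passed in all. The counts moved when single libraries were left out. Without NFKBIE-wt PC replicate 4, 30 were higher and 2 lower, and without any other single library between 3 and 10 were higher and between 2 and 5 lower. Shares of all genes in these fits are not given here, so it cannot be told whether the members or all genes moved.

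Cox6a2, the heart and muscle form of subunit 6a, was at 1.42, 1.79, 1.25 and 1.97 CPM in NFKBIE-wt PC samples and 1.06, 0.595, 0.425 and 0.435 CPM in NFKBIE-ko, a fall without overlap (log2 −1.34, SE 0.34, adjusted p = 0.0092) that rests on 158 and 64 counts. In the spleen it was at 2.85, 1.38, 0.819 and 2.78 CPM against 0.727, 1.02, 0.317 and 0.609 CPM (log2 −1.55, SE 0.52, adjusted p = 0.118). In vitro it was at 2.86, 6.03 and 1.57 CPM against 1.05, 1.16 and 0.495 CPM (−1.95, SE 0.60, adjusted p = 0.514). Its mean was lower under the knockout label in all 3 settings, and the spleen and in vitro differences did not pass the test. Without the doubted libraries these values were −1.32 (adjusted p = 0.135) and −2.29 (adjusted p = 0.269). Cox6a2 shares exon sequence on the opposite strand with Itgad, at a mean of 1.35 CPM.

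In the spleen edgeR called no member of 78 between genotypes, against 2.32% of all genes higher and 3.16% lower, with 4 members at an unadjusted p under 0.05. DESeq2 called 1, Cox6a2, lower (adjusted p = 0.0413). In vitro edgeR called none of 81, against 0.0427% of all genes higher and 0% lower, with 1 member at an unadjusted p under 0.05, and DESeq2 called none. Both counts stayed at 0 without the doubted library. In vitro, leaving out NFKBIE-wt replicate 2 gave 1 member higher, Atp5f1a (log2 0.54, adjusted p = 0.031), and 1 lower, Cox6a1 (−0.40, adjusted p = 0.0451). The median log2 difference between genotypes was 0.10 for spleen samples, 0.11 for PC samples and 0.10 for cultures, while over all genes it was −0.01, −0.01 and −0.02.

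The genotype effects were also compared with each other in a fit of all 22 samples. No member of 81 was called by edgeR in the difference between spleen and PC (4.9% of all genes were called), between spleen and in vitro (0.443%) or between PC and in vitro (4.9%), and the numbers at an unadjusted p under 0.05 were 1, 1 and 0. DESeq2 called Ndufa4l2 in the first (adjusted p = 0.0045). In the PC, the list of 20 glycolysis genes had 16 higher in NFKBIE-ko and none lower, led by Aldoc at 1.73 (SE 0.17, adjusted p = 2.47e-05), and none of the 13 mitochondrially encoded subunits was called there. Mitochondrial ribosomal protein genes had 5 higher and 12 lower of 78, assembly factors 4 higher and 7 lower of 45, and the TCA cycle 7 higher and 3 lower of 20. Over all genes in the PC 22.5% were higher and 20.9% lower, above the mitochondrial ribosomal and assembly factor shares in both directions. Of the respiratory genes outside the rule, the electron carrier Cycs rose by 0.62 (SE 0.11, adjusted p = 0.00135) and the ATP synthase inhibitor Atp5if1 by 0.36 (SE 0.10, adjusted p = 0.015). In these PC samples 11 of 14 myeloid markers were higher in NFKBIE-ko, and their part in the genotype differences was not tested.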

How the data were processed

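RNA was sequenced from 22 samples (TruSeq mRNA libraries, strand not stated). The authors quantified transcripts with Salmon 1.8 on GRCm39 and deposited 1 table of estimated counts per transcript, not normalized. Of 62492 transcripts, 62147 matched GENCODE M39, and the rest held 0.619% of counts. Counts were rounded per transcript and then summed per gene. The count of a gene takes in all its transcripts. Transcripts annotated as protein-coding held 68.0% of the counts of Ndufa10 and 65.8% of those of Atp5pb, and 29.8% of Atp5pf counts were in retained-intron transcripts. CPM used TMM-scaled totals, and TPM divided counts by transcript length first. Genes were filtered with filterByExpr and tested with edgeR 4.0.16 (R 4.3.3), TMM scaling and robust quasi-likelihood fits of the groups compared, with Benjamini-Hochberg adjustment over all genes and a threshold of 0.05. A fold condition of 1 on the log2 scale was counted beside it. SE is the fold change divided by the square root of F. DESeq2 1.42.0, other scalings, no filter, protein-coding transcripts only, a fit of all samples, a replicate block and leaving out single libraries were tried. The scripts were tested on simulated data.

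The groups followed the labels. Named were the member with the highest mean TPM of each complex, up to 3 called members per direction and comparison whose groups did not overlap, the tissue forms and their partners and Sdha to Sdhd, and up to 2 genes per direction in other lists. The gene set, the rule for its members and the lists were chosen with earlier results of these data known, and members named outside the rule were chosen after their values were seen. Intervals cover counting error only.

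The check of the leukemia cells against B cell markers is not reported here.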

Additional observations from a re-analysis of the deposited data

Results flagged for a closer look

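Within groups of 4 samples, a sample was set apart where its gap to the nearest other, divided by the group's range, exceeded Dixon's 95% critical value for 4 samples. This was the case for 8 of 116 sets of 4 values, and chance alone gives about 1 in 20. NFKBIE-wt spleen replicate 2 was high in 4 genes. There Atp5mc3 was at 318 CPM (others 229.8 to 239), Ndufb8 at 199 (131 to 135), Sdhd at 216 (148 to 159) and Uqcr10 at 152 (91.7 to 97.2). NFKBIE-wt PC replicate 4 was high in the summed level of complex II, at 617 CPM (575 to 577), and in Ndufb1, at 170.1 CPM (109 to 118). Atp5f1b was low in NFKBIE-wt PC replicate 3, at 1190.1 CPM (1272 to 1284), and Atp5mc3 was low in NFKBIE-ko PC replicate 1, at 195 CPM (others 214).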

How the results depend on the processing

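Of 63 called results for single genes, 24 passed the threshold under every alternative run and 0 reversed direction. The genes of the other lists were not rerun. Counts that moved by over 1.5 times follow. For NFKBIE-ko against NFKBIE-wt in the spleen, a fit of all 22 samples gave 2 higher and 1 lower and DESeq2 1 lower. In the PC the fit of all samples gave 4 higher and 0 lower. For PC against spleen in NFKBIE-wt, the fit of all samples gave 4 higher and 18 lower, total counts 12 lower and DESeq2 11 lower. For spleen against in vitro, the fit of all samples gave 2 higher in NFKBIE-ko, and leaving out both doubted libraries gave 1 lower in NFKBIE-wt. For PC against in vitro in NFKBIE-wt, 2 were lower with no filter and 2 with protein-coding transcripts only. In NFKBIE-ko the fit of all samples gave 5 higher and 6 lower and total counts 27 lower. The difference between the spleen and PC genotype effects had 1 lower with DESeq2 and 1 without both doubted libraries. The cause was not tested.

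The shared replicate numbers were not taken to pair the samples, since no source says that they mark a mouse and in no comparison did every same-numbered pair have deviations correlated above 0.1. With a replicate block, 2 members were lower in NFKBIE-ko in the PC, 1 was higher and 3 lower in the PC against spleen in NFKBIE-wt, 3 were higher in spleen against in vitro in NFKBIE-ko, and 0 were higher and 0 lower in PC against in vitro in NFKBIE-wt. As a hint from the data only, 3 of 4 samples correlated best with their own number in PC against spleen in NFKBIE-ko and 3 of 3 in spleen against in vitro in NFKBIE-ko, against 0 or 1 in the other 7 comparisons. Some spleen and PC samples share a mouse, and the matching is not given.

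Leaving out 1 library at a time gave these ranges. Between genotypes, 0 to 0 were higher and 0 to 0 lower in the spleen, 3 to 30 and 2 to 5 in the PC, and 0 to 1 and 0 to 1 in vitro. For PC against spleen the ranges were 1 to 6 higher and 2 to 10 lower in NFKBIE-wt and 4 to 8 and 17 to 41 in NFKBIE-ko. For spleen against in vitro they were 0 to 0 and 0 to 0 in NFKBIE-wt and 0 to 35 and 1 to 2 in NFKBIE-ko. For PC against in vitro they were 0 to 2 and 0 to 8 in NFKBIE-wt and 15 to 35 and 10 to 19 in NFKBIE-ko. For the differences between genotype effects they were 0 to 0 higher, and 0 to 1 lower in spleen against PC. Groups of 3 or 4 samples limit all of these counts. Shares of all genes are given beside the alternative fits only where 1 library was left out in PC against spleen. Elsewhere, a change in the count of members cannot be told from a change over all genes.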
